A study of Mus musculus with 10 samples.

Results

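The Slc25 genes encode the mitochondrial carrier family, the largest group of transporters in the inner mitochondrial membrane. They were taken from the count table as every gene whose symbol begins with Slc25a, apart from Slc25a20 and a pseudogene. This gave 46 members among the 49585 genes of the table. Of these, 38 passed the filter on low counts, as did 12906 genes in all. A member that passed through its level in a single group could have been favoured by that filter. Whether this applied to any of the 38 was not tested. The other 8 are accounted for separately at the end.

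The 10 libraries come from left ventricles of ICR mice, an outbred stock labelled male, whose hearts were taken 4 weeks after myocardial infarction. In 5 libraries the treatment label is MI+4FM3 and in the other 5 it is MI+PBS, where MI stands for the infarction and PBS for phosphate-buffered saline. All 10 share the infarction and a time label of 8 weeks, for which the labels name no starting point. What 4FM3 contains is not given in the sources used here, although the series title speaks of direct reprogramming with an AAV, a virus used to deliver genes. There was no uninjured heart and no empty vector among the libraries, so an effect of a vector itself and one of its contents cannot be told apart. The labels do not say whether every library is its own animal, and the p-values below therefore rest on the variation among libraries, which may be partly technical.

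Carriers of this family exchange metabolites, nucleotides, cofactors and ions between the cytosol and the mitochondrial matrix, because the inner membrane lets few of these pass. In a heart muscle cell the busiest of them import ADP and phosphate and export ATP for the contractile apparatus. Others carry the malate, oxoglutarate, aspartate and glutamate of the malate-aspartate shuttle, which brings reducing equivalents from cytosolic NADH into the matrix, or supply coenzyme A, NAD, iron and glutathione. Most members share a fold of tandem repeats in the membrane and are imported through the TIM complex of the inner membrane that handles carriers.

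The start sites of 4 members that differed in their change between the groups are shown. These are Slc25a4, the most abundant, Slc25a34, with the largest increase, Slc25a5, the near relative of Slc25a4, and Slc25a1, which fell. Slc25a5 had the smallest increase past the threshold. Slc25a45, which fell more than Slc25a1, is not shown. Each window runs from 250 bases before to 50 bases after the annotated start on the gene's own strand (RefSeq, GRCm38.p6). They lie at chr8:46211013-46211312 on the minus strand, chr4:141623785-141624084 on the minus strand, chrX:36795347-36795646 on the plus strand and chr16:17928170-17928469 on the minus strand. Capitals mark matches on either strand to 6 strings. The string AAGGTCA is part of the site that estrogen-related receptors are known to bind. An E-box is CACGTG here, which reads alike on both strands. The CCAAT box is searched by the letters of its name, and the GC box by the letters GGGCGG. A site of ETS factors is written CCGGAAG, and the core of a TATA box is taken as TATAAA. None of the marked matches overlap one another.
Slc25a4: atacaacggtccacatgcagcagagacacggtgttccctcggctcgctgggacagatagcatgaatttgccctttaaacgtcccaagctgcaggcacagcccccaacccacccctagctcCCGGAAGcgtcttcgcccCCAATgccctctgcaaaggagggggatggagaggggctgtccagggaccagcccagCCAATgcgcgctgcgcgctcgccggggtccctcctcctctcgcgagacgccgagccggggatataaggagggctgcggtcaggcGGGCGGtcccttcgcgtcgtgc
Slc25a34: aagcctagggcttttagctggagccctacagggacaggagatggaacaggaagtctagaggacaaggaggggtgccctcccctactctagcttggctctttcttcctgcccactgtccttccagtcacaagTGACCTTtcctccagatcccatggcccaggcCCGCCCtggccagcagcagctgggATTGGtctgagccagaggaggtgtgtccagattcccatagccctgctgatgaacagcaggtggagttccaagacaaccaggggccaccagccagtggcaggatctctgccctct
Slc25a5: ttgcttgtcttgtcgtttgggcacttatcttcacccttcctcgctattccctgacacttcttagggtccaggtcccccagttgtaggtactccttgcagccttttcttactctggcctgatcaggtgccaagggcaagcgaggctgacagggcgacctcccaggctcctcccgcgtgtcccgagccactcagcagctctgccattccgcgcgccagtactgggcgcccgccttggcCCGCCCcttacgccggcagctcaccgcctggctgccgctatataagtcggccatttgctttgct
Slc25a1: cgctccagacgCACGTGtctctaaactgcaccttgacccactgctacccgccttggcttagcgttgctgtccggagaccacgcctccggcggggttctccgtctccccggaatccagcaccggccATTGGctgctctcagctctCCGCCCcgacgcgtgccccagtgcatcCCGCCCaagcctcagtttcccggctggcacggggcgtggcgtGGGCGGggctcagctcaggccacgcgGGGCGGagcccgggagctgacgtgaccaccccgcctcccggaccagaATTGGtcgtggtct

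The window of Slc25a34 differed from the other 3 in base composition. It held 1 CpG and 59.0% G and C, whereas the windows of Slc25a4, Slc25a5 and Slc25a1 held 25, 18 and 30 CpG and 65.7%, 61.0% and 69.3% G and C. Over the family, 35 members had a window, 45 windows in all, with a median of 59.7% G and C against 52.7% over all 32851 windows of the table. The GC box letters were in 82.2% of the family's windows and in 35.7% of all windows, the CCAAT letters in 48.9% against 37.4%, and the E-box letters in 17.8% against 7.15%. The ETS letters were in 13.3% against 8.86% and TATAAA in 4.44% against 13.6%. AAGGTCA was in the window of a single member, Slc25a34 (2.22% of the family's windows, against 4.72% of all). These matches describe letters in the windows and were not tested as binding sites.

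The family as a whole took a larger share of the RNA in 4FM3 hearts. Its members summed to 7301, 5858, 7381, 7009.6 and 6111 CPM (read counts divided by edgeR's TMM-scaled library size) in 4FM3 replicates 1 to 5, against 4532, 3852, 4051, 4779.6 and 3600 CPM in PBS replicates 1 to 5. The lowest 4FM3 library lay above the highest PBS library, and 4FM3 replicates 2 and 5 were the low libraries of their group. The family held 0.631% ± 0.056 of all counts in 4FM3 and 0.44% ± 0.0382 in PBS (SD, n = 5 each). Its make-up also differed, with Slc25a4 providing 45.0% ± 1.9 of the family's counts in 4FM3 and 38.6% ± 1.27 in PBS. Slc25a4, Slc25a3 and Slc25a5 together provided 69.4% ± 1.1 in 4FM3 and 65.1% ± 1.21 in PBS, so a few genes of ATP export and phosphate uptake set the sum.

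Gene by gene, 17 of the 38 tested members rose in 4FM3, 4 fell and 17 did not pass the test, at a Benjamini-Hochberg adjusted p under 0.05 from edgeR's quasi-likelihood test of 4FM3 against PBS over all genes. That is 55.3% of the tested members, beside 43.0% of all tested genes, which split into 20.9% higher and 22.1% lower. The median log2 fold change was 0.18 for the tested members and -0.03 for all tested genes. The values of the groups did not overlap for 13 members that were higher and 2 that were lower, whereas 27.5% of all tested genes did not overlap (14.1% higher, 13.4% lower). With library size alone as scaling, which placed the median of all genes at -0.20, 12 members rose and 8 fell. Of all 12906 genes tested, 1540 rose and 4967 fell under that scaling. Without PBS replicates 2 and 3, left out in an alternative chosen after seeing the data, 13 members rose and 2 fell. That fit called 1853 of 13051 genes higher and 1668 lower. Among members with a start window, the GC box letters stood in 11 of 13 that rose, 3 of 3 that fell and 12 of 13 that did not pass the test. The plot of fold changes by role shows these calls.

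**Figure D1:**
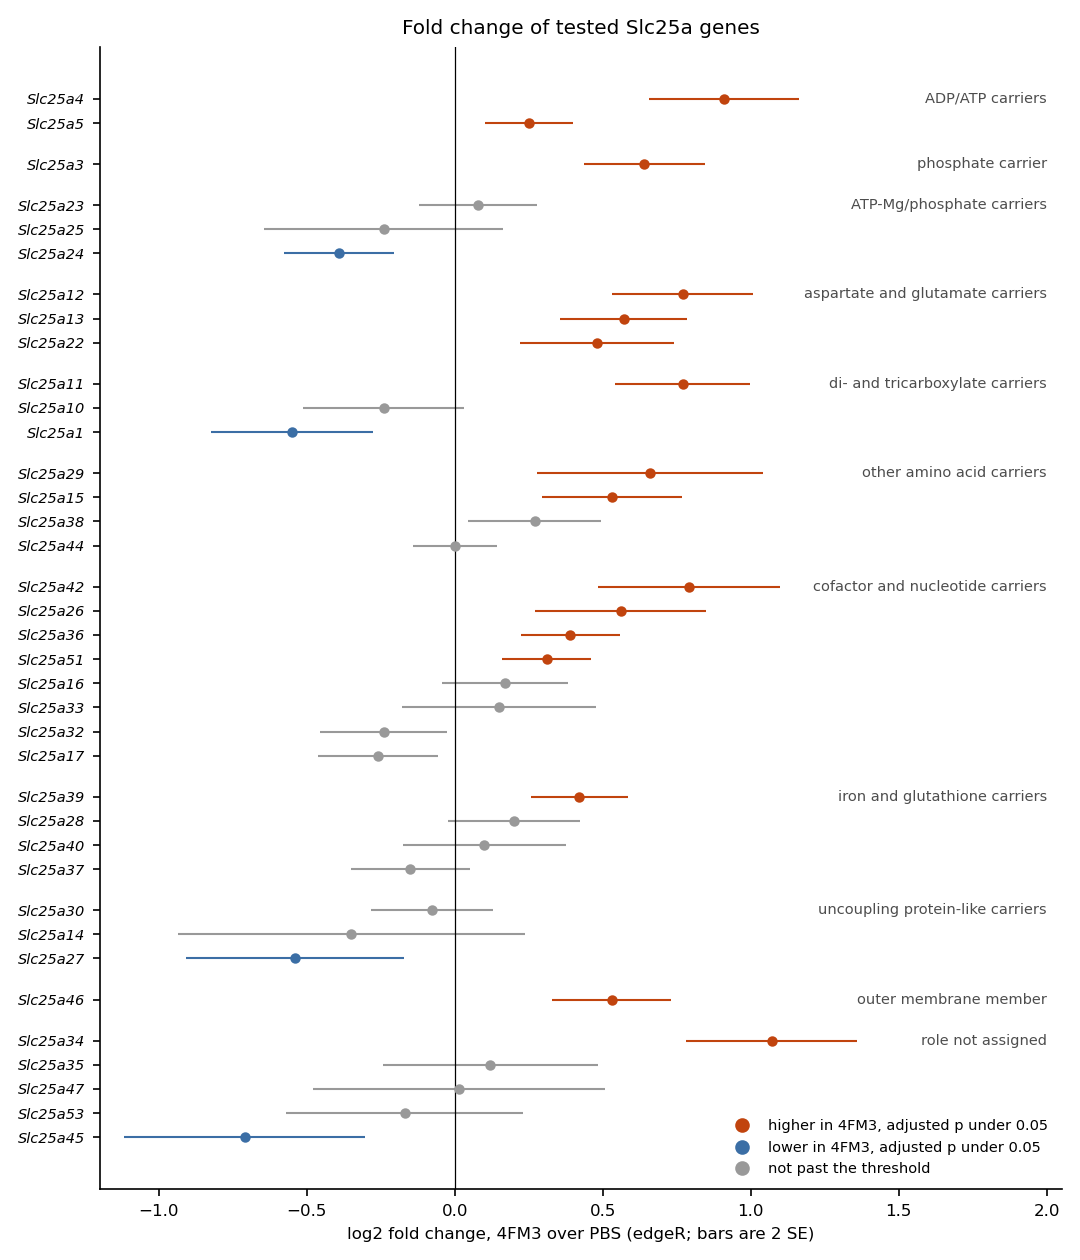
Log2 fold change of 4FM3 over PBS for tested members, grouped by transported substrate, with points for the edgeR estimate and bars of 2 SE. The ADP/ATP, phosphate, aspartate and glutamate carriers lie to the right of 0, Slc25a34 is farthest right at 1.07 and Slc25a45 farthest left at -0.71.

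Markers of the cell types in the ventricle moved with the groups as well. The 7 cardiomyocyte markers were all higher in 4FM3, with a median log2 fold change of 0.80, and summed to between 38135 and 50515 CPM in 4FM3 and between 23416 and 34645 CPM in PBS. The 7 fibroblast markers were all lower and summed to between 3911 and 6793 CPM in 4FM3 and between 9776 and 12155 CPM in PBS, with none of them at 0. Of 6 macrophage markers, 4 were lower, and the sums ran from 239 to 310.5 CPM in 4FM3 and from 294 to 665 CPM in PBS. Of 6 endothelial markers, 3 were higher, with sums from 1123 to 1195 CPM in 4FM3 and from 960.4 to 1142 CPM in PBS. Of 6 markers of smooth muscle and pericytes, 4 were lower and 2 higher, with sums from 837 to 914 CPM in 4FM3 and from 733 to 909.6 CPM in PBS. In whole ventricle, fewer cells of a type and less RNA per cell cannot be told apart. Set against the cardiomyocyte markers, the family's counts came to 15.2, 15.4, 14.7, 13.9 and 13 per 100 marker counts in 4FM3 replicates 1 to 5 and to 15, 15.9, 17.3, 13.8 and 14.8 in PBS replicates 1 to 5. On that scale the groups overlapped. The sum of the markers rests mostly on Myh6, which averaged 28958 CPM in 4FM3 and 16685 CPM in PBS. The log2 fold changes of the 7 markers ran from 0.34 (Actn2) to 1.07 (Tnni3), so the scale depends on the markers chosen. The part of the cell type markers in the results of single carriers and of carrier ratios was not tested.

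Depth was similar in all libraries, with total counts from 6634159 to 7319968 in 4FM3 and from 7099249 to 7711177 in PBS, so that 3 counts correspond to between 0.371 and 0.481 CPM. The markers went with heart as the tissue, since the cardiomyocyte list was the most abundant and the liver list summed to at most 0.867 CPM. These lists do not tell the left ventricle from other parts of the heart. PBS replicates 2 and 3 stood apart by markers of lung epithelium, which summed to 933 and 899 CPM there, against 19.5 CPM in 4FM3 replicate 2 and at most 1.7 CPM in each of the other libraries. Some adipocyte markers were uneven as well. Cfd had 37.1 CPM in 4FM3 replicate 5 and 26.9, 11.8 and 15.7 CPM in PBS replicates 1, 4 and 5, and at most 2.6 CPM elsewhere. Adipoq and Plin1 were also highest in PBS replicate 1, whereas Fabp4 was highest in 4FM3 replicate 3, at 210.2 CPM. Where a Slc25a member described below lost its call without PBS replicates 2 and 3, that value is given beside it. Calls of genes under other symbols are given for the fit to all 10 libraries alone.

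Levels per length spread over more than 3 orders of magnitude among the tested members. In CPM per kilobase of mRNA, Slc25a4 averaged 1578 ± 224 in 4FM3 and 838 ± 124 in PBS (SD, n = 5 each). Slc25a3 followed with 863 ± 76.3 in 4FM3 and 553 ± 70.7 in PBS. Slc25a11 and Slc25a5 came next and changed places, Slc25a11 at 246 ± 28.6 and Slc25a5 at 202 ± 17.5 in 4FM3, against 144 ± 22.7 and 170 ± 11.1 in PBS. Slc25a13 and Slc25a34 did not differ beyond their spread in 4FM3, at 68.6 ± 6.26 and 67.0 ± 10.2, and stood at 46.3 ± 7.66 and 31.9 ± 6.59 in PBS. All other tested members averaged under Slc25a34 in CPM per kilobase over the 10 libraries.

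**Figure D2:**
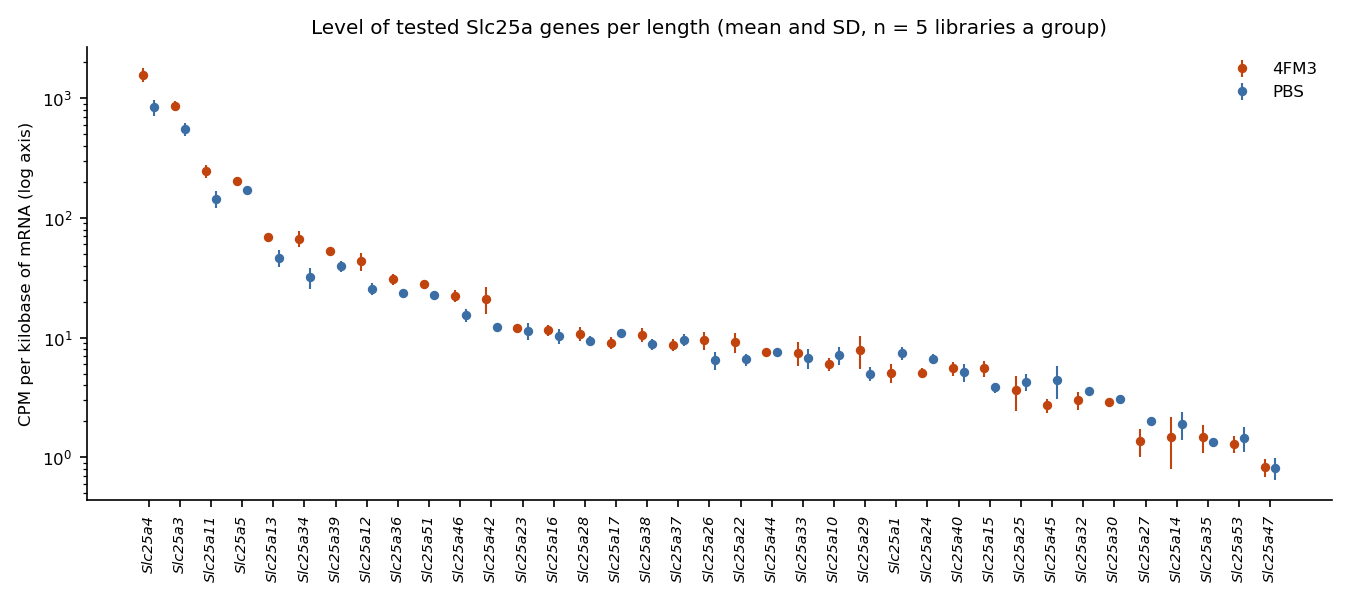
Mean level of tested members in CPM per kilobase of mRNA on a log axis, with SD over 5 libraries, 4FM3 left of PBS for each gene. Slc25a4 and Slc25a3 stand above all others in both groups, and the groups lie together for Slc25a44.

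The ADP/ATP carriers export ATP from the matrix in exchange for ADP. Slc25a4 (chr8:46206797-46211284, minus strand) is the isoform of heart and skeletal muscle. It had 3445, 2509.8, 3446, 3108 and 2677 CPM in 4FM3 replicates 1 to 5, against 1814, 1473, 1534, 1906 and 1334 CPM in PBS replicates 1 to 5. Every 4FM3 library lay above every PBS library, with 4FM3 replicates 2 and 5 nearest to PBS. Slc25a4 rose 1.88-fold (log2 fold change 0.91, SE 0.127, edgeR adjusted p = 0.000314). Slc25a5 (chrX:36795651-36798807, plus strand), the isoform found in most tissues, had 261, 222, 257, 236 and 277 CPM in 4FM3 and 219, 197, 204, 231 and 203 CPM in PBS. Here the groups overlapped, as 4FM3 replicate 2 lay below PBS replicate 4. Slc25a5 rose 1.19-fold (log2 fold change 0.25, SE 0.0744, edgeR adjusted p = 0.0173). That call was lost with library size alone as scaling (log2 fold change 0.07, edgeR adjusted p = 0.378) and without PBS replicates 2 and 3 (0.21, edgeR adjusted p = 0.117).

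The ratio of Slc25a4 to Slc25a5 counts within a library does not depend on how libraries are scaled. It can still depend on the mix of cell types, and the part of that mix was not tested. The ratio was 13.2, 11.3, 13.4, 13.2 and 9.67 in 4FM3 replicates 1 to 5, against 8.29, 7.47, 7.51, 8.25 and 6.57 in PBS replicates 1 to 5. No 4FM3 value reached down to a PBS value. The mean log2 ratio was 3.59 ± 0.205 in 4FM3 and 2.92 ± 0.137 in PBS (SD, n = 5 each), a difference of 0.67. A two-sided exact permutation test over the 252 assignments of the libraries gave p = 0.00794, the smallest this design allows, and 0.0317 after Benjamini-Hochberg adjustment over the 8 pairs of related carriers compared. With any 1 library left out other than PBS replicate 1, the adjusted p was 0.0635, with differences between 0.62 and 0.75, and without PBS replicate 1 it was 0.0423. Per length, Slc25a4 was 7.83 ± 1.05 times as abundant as Slc25a5 in 4FM3 and 4.91 ± 0.454 times in PBS.

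Because the genes are near relatives, their coding sequences bear on how well counts can be told apart. The start of each is shown from coding base 1 to 150 (GENCODE M21 transcripts on chromosomes 8 and X, 5′ to 3′), with the 32 differing bases in capitals.
Slc25a4: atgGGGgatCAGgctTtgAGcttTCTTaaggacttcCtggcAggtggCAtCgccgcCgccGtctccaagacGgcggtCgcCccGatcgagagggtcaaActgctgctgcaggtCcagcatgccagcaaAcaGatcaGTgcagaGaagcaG
Slc25a5: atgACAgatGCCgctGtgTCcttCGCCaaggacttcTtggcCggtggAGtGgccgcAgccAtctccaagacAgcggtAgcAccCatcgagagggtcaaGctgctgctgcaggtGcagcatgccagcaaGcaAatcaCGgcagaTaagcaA
Over the 897 aligned coding bases, 695 were identical (77.5%). The longest run shared without a difference, sought at any position in the full transcripts, was 20 bases. Among all 10 comparisons of related carriers made this way, identity ran from 60.1% to 77.5% and the longest shared run from 11 to 23 bases. How the counting treated reads that match several genes is not given in the sources used here.

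Slc25a3 (chr10:91116574-91124059, minus strand), the phosphate carrier that supplies ATP synthase and also brings copper to the matrix, rose as well. It had 1467, 1248, 1456, 1514 and 1269 CPM in 4FM3 replicates 1 to 5, against 974, 823, 875, 1036 and 752 CPM in PBS replicates 1 to 5. The groups did not overlap, and replicate 2 was again the lowest of the 4FM3 libraries. Slc25a3 rose 1.56-fold (log2 fold change 0.64, SE 0.102, edgeR adjusted p = 0.000541).

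The calcium-regulated ATP-Mg/phosphate carriers adjust the adenine nucleotide pool of the matrix, and none of the 3 tested rose. Slc25a24 (chr3:109123149-109168457, plus strand) had 17.6, 20.1, 17, 16.2 and 16.5 CPM in 4FM3 and 20.6, 21.8, 26, 22.2 and 24.1 CPM in PBS. All 4FM3 libraries lay below all PBS libraries, although 4FM3 replicate 2 and PBS replicate 1 were close together. Slc25a24 fell 1.31-fold (log2 fold change -0.39, SE 0.093, edgeR adjusted p = 0.00532). Slc25a23 had 41.7, 40.7, 39.7, 39.2 and 41.3 CPM in 4FM3, a narrow range, and 37.5, 35.5, 46.8, 41.8 and 30.3 CPM in PBS. Its log2 fold change was 0.08, with an interval of 2 SE from -0.12 to 0.28 (edgeR adjusted p = 0.548). Slc25a25 varied most, with 7.36, 11.2, 12.5, 14.2 and 18.6 CPM in 4FM3 and 12.8, 18.9, 15.4, 13 and 15.7 CPM in PBS (log2 fold change -0.24, interval -0.65 to 0.16, edgeR adjusted p = 0.347).

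Within a library, the count ratio of Slc25a23 to Slc25a24 was 2.36, 2.02, 2.33, 2.41 and 2.50 in 4FM3 and 1.82, 1.63, 1.80, 1.88 and 1.26 in PBS. The groups did not overlap, and PBS replicate 5 was the lowest of all. The log2 ratio was 1.21 ± 0.117 in 4FM3 and 0.73 ± 0.238 in PBS (SD, n = 5 each), a difference of 0.48 (two-sided exact permutation p = 0.00794, adjusted p = 0.0317 over the 8 pairs). Here too the adjusted p was 0.0635 with any 1 library left out other than PBS replicate 1, with differences between 0.38 and 0.53, and 0.0423 without PBS replicate 1. The ratio of Slc25a23 to Slc25a25 overlapped between the groups and differed by 0.39 (exact permutation test, adjusted p = 0.218).

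All 3 tested carriers of aspartate and glutamate rose. Slc25a12 (chr2:71271063-71367749, minus strand), the aspartate/glutamate exchanger best known from heart, muscle and brain, had 331, 237, 303, 291 and 217 CPM in 4FM3 replicates 1 to 5, against 181, 159.6, 151, 181 and 137 CPM in PBS replicates 1 to 5. The groups were apart, and 4FM3 replicates 2 and 5 were the lowest of theirs. Slc25a12 rose 1.70-fold (log2 fold change 0.77, SE 0.119, edgeR adjusted p = 0.00051). Slc25a13 (chr6:6041218-6217173, minus strand), known as citrin and as the liver isoform, had 221, 181, 222, 232 and 214 CPM in 4FM3 and 152, 122, 139, 182 and 127 CPM in PBS. The groups overlapped only in that PBS replicate 4 exceeded 4FM3 replicate 2. Slc25a13 rose 1.48-fold (log2 fold change 0.57, SE 0.107, edgeR adjusted p = 0.00138). Per length, taken from the longest annotated transcripts (6351 bases for Slc25a12 and 3121 for Slc25a13), the transcript of the liver isoform was the more abundant. The Slc25a12 level was 0.633 ± 0.0874 times that of Slc25a13 in 4FM3 and 0.556 ± 0.0583 times in PBS. In counts, Slc25a12 was the higher in every library but PBS replicate 4 (ratio 0.995), with ratios up to 1.49. Which transcripts were expressed was not tested. The log2 count ratio of the pair differed by 0.18 (exact permutation test, adjusted p = 0.218).

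Slc25a22, a glutamate carrier, had 20.2, 21.6, 29.6, 31.1 and 26.2 CPM in 4FM3 and 17.1, 18.2, 16.2, 19.1 and 21.9 CPM in PBS. The groups overlapped at PBS replicate 5, which exceeded 4FM3 replicates 1 and 2. Slc25a22 rose 1.39-fold (log2 fold change 0.48, SE 0.130, edgeR adjusted p = 0.0111), and its call was lost with library size alone (0.30, edgeR adjusted p = 0.0772) and without PBS replicates 2 and 3 (0.42, edgeR adjusted p = 0.0664). Its relative Slc25a18 was near the detection floor, with 0.614, 1.41, 0.961, 1.08 and 1.16 CPM in 4FM3 and 0.911, 1.38, 1.49, 0.76 and 1.03 CPM in PBS, and was not tested. The log2 ratio of Slc25a22 to Slc25a18 differed by 0.54 (exact permutation test, adjusted p = 0.178).

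Among carriers of di- and tricarboxylates the members went opposite ways. Slc25a11 (chr11:70644196-70647479, minus strand) exchanges oxoglutarate for malate and is the other carrier of the malate-aspartate shuttle. It had 466, 377, 455, 449 and 359 CPM in 4FM3 replicates 1 to 5, against 289, 217, 248, 282 and 200.1 CPM in PBS replicates 1 to 5. The groups were well apart, again with 4FM3 replicates 2 and 5 the lowest of theirs. Slc25a11 rose 1.70-fold (log2 fold change 0.77, SE 0.114, edgeR adjusted p = 0.000399). Of its annotated exon bases, 8.92% overlap Rnf167 on the opposite strand, and whether the counting used the strand is not given in the sources used here.

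Slc25a1 (chr16:17925223-17928219, minus strand) exports citrate, from which the cytosol makes acetyl-CoA for lipid synthesis. It had 7.98, 7.63, 8.97, 7.09 and 10.8 CPM in 4FM3 and 12.1, 12.8, 11.3, 11.1 and 14.9 CPM in PBS. The 4FM3 libraries all lay below the PBS libraries, narrowly so for 4FM3 replicate 5. Slc25a1 fell 1.46-fold (log2 fold change -0.55, SE 0.137, edgeR adjusted p = 0.00671). Slc25a10, the dicarboxylate carrier, had a log2 fold change of -0.24 that did not pass the test (12.2 ± 1.51 CPM in 4FM3 and 14.5 ± 2.57 CPM in PBS, edgeR adjusted p = 0.163), and passed it with library size alone as scaling (-0.42, edgeR adjusted p = 0.0218).

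**Figure D3:**
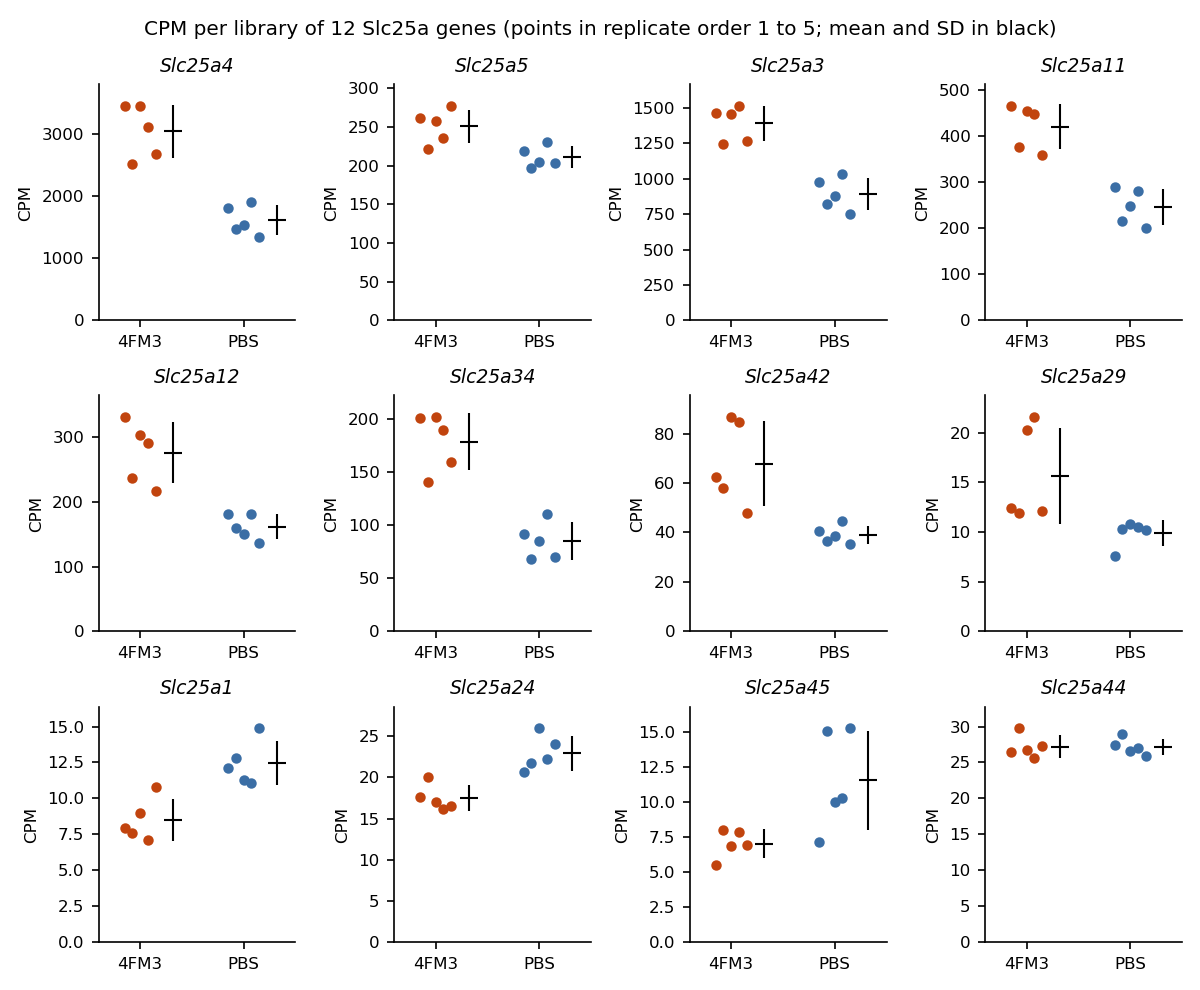
CPM of 12 members in each library, 4FM3 left of PBS, with points in replicate order and the mean with SD over 5 libraries in black; each panel has its own axis from 0. Slc25a4, Slc25a3, Slc25a11, Slc25a12 and Slc25a34 separate the groups, Slc25a5 overlaps, Slc25a1 and Slc25a24 lie lower in 4FM3, and Slc25a44 is level.

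Other amino acid carriers were less uniform. Slc25a29 (chr12:108825873-108835883, minus strand), a carrier of basic amino acids, had 12.4, 11.9, 20.3, 21.6 and 12.1 CPM in 4FM3 and 7.55, 10.3, 10.8, 10.5 and 10.2 CPM in PBS. The groups did not overlap, but 3 of the 4FM3 libraries sat just above the PBS range, and replicates 3 and 4 carried most of the difference. Slc25a29 rose 1.58-fold (log2 fold change 0.66, SE 0.191, edgeR adjusted p = 0.0146). Slc25a15, the ornithine carrier known from the urea cycle, rose 1.44-fold, with 18.9 ± 2.97 CPM in 4FM3 and 13.1 ± 1.23 CPM in PBS (SD, n = 5 each, edgeR adjusted p = 0.00375). Slc25a38, which supplies glycine for heme synthesis, had 19 ± 2.49 CPM in 4FM3 and 15.7 ± 1.74 CPM in PBS and did not pass the test (log2 fold change 0.27, edgeR adjusted p = 0.0636). Without 4FM3 replicate 5 it passed as higher (0.34, edgeR adjusted p = 0.0262). Slc25a44, the carrier of branched-chain amino acids, was level at 27.2 ± 1.60 CPM in 4FM3 and 27.2 ± 1.13 CPM in PBS, with an interval of 2 SE on the log2 scale from -0.14 to 0.14 (edgeR adjusted p = 0.996).

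Of the 9 tested carriers of cofactors and nucleotides, 5 rose and 4 did not pass the test. Slc25a42 (chr8:70184340-70212305, minus strand), which carries coenzyme A into the matrix, had 62.3, 57.8, 86.7, 84.7 and 47.8 CPM in 4FM3 and 40.4, 36.5, 38.6, 44.7 and 35.4 CPM in PBS. The PBS libraries were tightly grouped and the 4FM3 libraries widely spread above them, with replicate 5 closest. Slc25a42 rose 1.73-fold (log2 fold change 0.79, SE 0.154, edgeR adjusted p = 0.00202). Slc25a16, another member linked to coenzyme A, had a log2 fold change of 0.17 (36.6 ± 3.89 CPM in 4FM3 and 32.5 ± 4.60 CPM in PBS, edgeR adjusted p = 0.205).

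Slc25a26 (chr6:94500331-94604672, plus strand), the carrier of the methyl donor S-adenosylmethionine, had 21.3, 14.1, 19.5, 20.5 and 16 CPM in 4FM3 and 15.1, 10.6, 11, 14.3 and 10.9 CPM in PBS. The groups overlapped, since 4FM3 replicate 2 fell below PBS replicates 1 and 4. Slc25a26 rose 1.48-fold (log2 fold change 0.56, SE 0.144, edgeR adjusted p = 0.00794), a call lost without PBS replicates 2 and 3 (0.45, edgeR adjusted p = 0.0674). Slc25a51, the NAD carrier, rose 1.24-fold (125 ± 10.8 CPM in 4FM3 and 100.5 ± 7.94 CPM in PBS, edgeR adjusted p = 0.0059), and with library size alone its log2 fold change was 0.14 (edgeR adjusted p = 0.126).

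Slc25a36 and Slc25a33 both carry pyrimidine nucleotides used for mitochondrial DNA and RNA. Slc25a36 had 139, 185, 161, 158 and 163 CPM in 4FM3 and 118, 107, 124, 129.6 and 135 CPM in PBS, with no overlap, and unlike most members it was highest in 4FM3 replicate 2. It rose 1.31-fold (log2 fold change 0.39, SE 0.0838, edgeR adjusted p = 0.00283), and with library size alone it did not pass (0.22, edgeR adjusted p = 0.0588). Slc25a33 had 14, 13.8, 12, 11.4 and 19.4 CPM in 4FM3 and 13, 11.7, 12.6, 16.6 and 9.92 CPM in PBS, which overlap throughout (log2 fold change 0.15, interval -0.18 to 0.47, edgeR adjusted p = 0.491). Of its exon bases, 14.9% overlap an annotated gene on the opposite strand. The log2 ratio of Slc25a33 to Slc25a36 differed by -0.25 (exact permutation test, adjusted p = 0.262). Slc25a32, linked to folate and flavin transport, and Slc25a17, a carrier of peroxisomes and not of mitochondria, had log2 fold changes of -0.24 and -0.26 and did not pass the test (edgeR adjusted p = 0.0855 and 0.0511). With library size alone as scaling both passed as lower (-0.41 and -0.44, edgeR adjusted p = 0.00984 and 0.00408), as they did without 4FM3 replicate 5 (-0.34 and -0.32, edgeR adjusted p = 0.00725 and 0.0219). Slc25a17 also passed with limma-voom (adjusted p = 0.0498), and Slc25a32 with 4FM3 replicates 2 and 5 and PBS replicates 2 and 3 all left out (-0.42, edgeR adjusted p = 0.018).

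Of the 4 tested carriers of iron and glutathione, Slc25a39 rose and the other 3 did not pass the test. Slc25a39 (chr11:102402985-102407946, minus strand) imports glutathione and had 95.4, 79.0, 96.9, 84.7 and 90 CPM in 4FM3 replicates 1 to 5, against 75.6, 64.3, 60.9, 72.4 and 60.9 CPM in PBS replicates 1 to 5. The groups did not overlap, with 4FM3 replicate 2 and PBS replicate 1 adjacent. Slc25a39 rose 1.33-fold (log2 fold change 0.42, SE 0.0818, edgeR adjusted p = 0.00176). Its relative Slc25a40 had 15.6, 11.9, 15.1, 16.7 and 17.6 CPM in 4FM3 and 11.2, 14.7, 16.1, 17 and 12.6 CPM in PBS (log2 fold change 0.10, interval -0.17 to 0.37, edgeR adjusted p = 0.577). The log2 ratio of Slc25a39 to Slc25a40 differed by 0.31 (exact permutation test, adjusted p = 0.178).

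The mitoferrins import iron for heme and iron-sulfur clusters, Slc25a37 chiefly in red cell precursors and Slc25a28 elsewhere. Slc25a28 had 17.9, 15.7, 16.8, 19 and 13.4 CPM in 4FM3 and 16.9, 14.5, 13.1, 14.1 and 13.7 CPM in PBS (log2 fold change 0.20, interval -0.03 to 0.42, edgeR adjusted p = 0.168). Slc25a37 had 30.2, 39.6, 38.6, 33.5 and 39.5 CPM in 4FM3 and 37.8, 47.5, 35.9, 37.5 and 42.5 CPM in PBS (log2 fold change -0.15, interval -0.35 to 0.05, edgeR adjusted p = 0.244). Both overlapped between the groups. The longest annotated transcripts have 1535 bases for Slc25a28 and 4174 for Slc25a37. Per length, Slc25a28 was 1.27 ± 0.298 times as abundant as Slc25a37 in 4FM3 and 0.987 ± 0.153 times in PBS. In counts Slc25a28 was the lower in every library, with ratios from 0.305 to 0.595. The difference of the log2 ratios, 0.34, did not pass the test (exact permutation test, adjusted p = 0.178). None of 5 tested erythroid markers passed the test, and their sums ran from 292 to 687 CPM in 4FM3 and from 254 to 555 CPM in PBS. With library size alone as scaling, Slc25a37 passed as lower (-0.33, edgeR adjusted p = 0.0319).

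**Figure D4:**
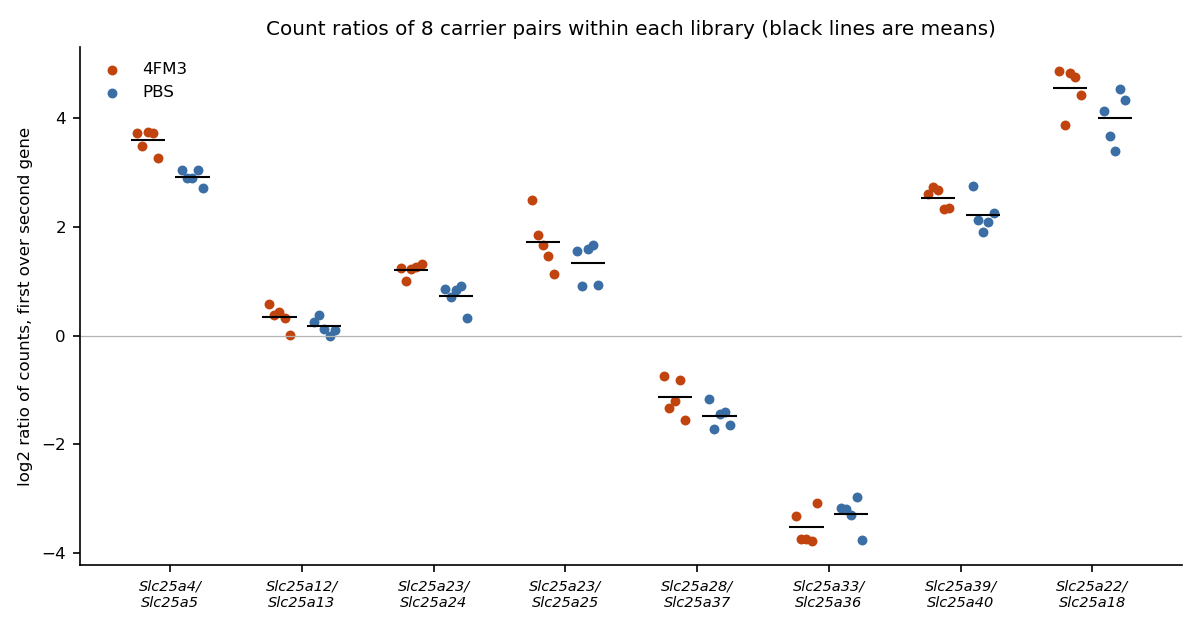
Log2 ratio of counts within each library for the 8 pairs of related carriers, the gene named above over the gene named below, 4FM3 left of PBS, with black lines at the means. The groups are apart for Slc25a4/Slc25a5 and for Slc25a23/Slc25a24 and overlap for the other 6 pairs.

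The members named for their likeness to uncoupling proteins were low. Slc25a27 (chr17:43641891-43667214, minus strand), best known from brain, had 3.07, 5.37, 3.04, 4.78 and 3.61 CPM in 4FM3 and 5.99, 6.04, 5.70, 5.32 and 6.05 CPM in PBS. The PBS libraries were nearly equal, and 4FM3 replicate 2 reached into their range. Slc25a27 fell 1.46-fold (log2 fold change -0.54, SE 0.184, edgeR adjusted p = 0.0303), the least stable call of the family, lost under 10 of 18 alternatives, among them 7 of the 10 that leave out a single library. The adjusted p reached 0.109 without PBS replicates 2 and 3. Slc25a30 and Slc25a14 had log2 fold changes of -0.08 and -0.35 and did not pass the test (edgeR adjusted p = 0.581 and 0.346).

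Slc25a34 (chr4:141618824-141623821, minus strand) had the largest increase of the family and is an orphan carrier, with no transported substrate given here. It had 201, 141, 202, 190 and 159.9 CPM in 4FM3 replicates 1 to 5, against 91.3, 68.3, 85.3, 111 and 69.8 CPM in PBS replicates 1 to 5. The groups did not overlap, and 4FM3 replicates 2 and 5 were again the lowest of theirs. Slc25a34 rose 2.10-fold (log2 fold change 1.07, SE 0.145, edgeR adjusted p = 0.000333). Its start window, shown above, was the one with a single CpG.

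The other orphan members were lower in abundance. Slc25a45 (chr19:5877808-5885878, plus strand) had 5.52, 8.05, 6.89, 7.86 and 6.94 CPM in 4FM3 and 7.16, 15.1, 10, 10.3 and 15.3 CPM in PBS. PBS replicate 1 lay within the 4FM3 range, and PBS replicates 2 and 5 were far above it. Slc25a45 fell 1.64-fold (log2 fold change -0.71, SE 0.204, edgeR adjusted p = 0.014), and the call was lost without PBS replicates 2 and 3 (-0.61, edgeR adjusted p = 0.0667). Slc25a35, Slc25a47 and Slc25a53 had log2 fold changes of 0.12, 0.02 and -0.17 and did not pass the test (edgeR adjusted p = 0.615, 0.971 and 0.524). Of the exon bases of Slc25a35, 31.3% overlap Rangrf on the opposite strand.

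Slc25a46 (chr18:31556111-31609911, minus strand) is a member of the outer membrane with a part in mitochondrial shape and fusion. It had 94.9, 86.6, 114, 102 and 89.3 CPM in 4FM3 replicates 1 to 5, against 72.9, 65.0, 74.9, 71.7 and 53.5 CPM in PBS replicates 1 to 5. The groups did not overlap. Slc25a46 rose 1.44-fold (log2 fold change 0.53, SE 0.101, edgeR adjusted p = 0.0015). Of its exon bases, 7.06% overlap an annotated gene on the opposite strand.

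Among the 17 members that rose, 4FM3 replicate 2 was the lowest of its group for 11. PBS replicate 2 and PBS replicate 5 were the lowest of theirs for 7 each, and PBS replicate 4 was the highest for 7. The sum of cardiomyocyte markers was lowest in replicate 2 among the 4FM3 libraries, at 38135 CPM. Among the PBS libraries it was highest in replicate 4, at 34645 CPM, and lowest in replicate 3, at 23416 CPM, which was the lowest PBS library for only 2 of the 17. The sum of fibroblast markers was highest in replicates 2 and 5 among the 4FM3 libraries, at 6456 and 6793 CPM. Slc25a4 counts per 100 cardiomyocyte marker counts were 7.16, 6.58, 6.85, 6.15 and 5.69 in 4FM3 replicates 1 to 5 and 6.0, 6.09, 6.55, 5.50 and 5.49 in PBS replicates 1 to 5. On this scale, which rests mostly on Myh6, the groups overlapped. The log2 fold change of Slc25a4, 0.91, lay within the range of the 7 markers, 0.34 to 1.07. Ratios of Slc25a4 to single markers were not tested.

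The 8 members that did not pass the filter are Slc25a2, Slc25a18, Slc25a21, Slc25a31, Slc25a41, Slc25a43, Slc25a48 and Slc25a54. Slc25a2, an ornithine carrier, and Slc25a41, an ATP-Mg/phosphate carrier, had no count in any of the 10 libraries. Slc25a48 had 1 count in all, Slc25a54 had 2 and Slc25a21, the oxoadipate carrier, had 7. Slc25a31, the ADP/ATP carrier of testis, had 38 counts over the 10 libraries and none in 4FM3 replicates 1 and 3. Slc25a43 had 32 counts and Slc25a18 had 79. In the fit without a filter, the 6 of these with a count were tested and none passed (lowest edgeR adjusted p = 0.335), so no change was detectable in them at this depth.

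The family also has members under other symbols. Of 4 tested, 2 were higher in 4FM3 and 1 was lower, beside 20.9% and 22.1% of all tested genes. Ucp3, the uncoupling protein of muscle, had 12.1, 7.91, 31.1, 20 and 15.3 CPM in 4FM3 and 4.69, 3.27, 5.82, 8.48 and 5.67 CPM in PBS, with 4FM3 replicate 3 far above the rest and 4FM3 replicate 2 below PBS replicate 4. It rose 3.08-fold (log2 fold change 1.62, SE 0.361, edgeR adjusted p = 0.00494), a larger fitted change than that of any of the 38 tested Slc25a genes. Ucp2, an uncoupling protein prominent in immune cells, had 72.4, 69, 67.1, 79 and 124 CPM in 4FM3 and 98.8, 171, 124, 101 and 187 CPM in PBS. It fell 1.65-fold (log2 fold change -0.73, SE 0.231, edgeR adjusted p = 0.0278), with 4FM3 replicate 5 inside the PBS range. Whether the call of Ucp2 holds without PBS replicates 2 and 3, the libraries with lung markers, is not given here. Ucp2 and the macrophage markers were both highest in PBS replicate 5, where the markers summed to 665 CPM, and their part in the result was not tested. Mtch2, an insertase of the outer membrane, rose 1.25-fold (edgeR adjusted p = 0.00121), and Mtch1 did not pass the test (log2 fold change -0.13, edgeR adjusted p = 0.13). Ucp1, the uncoupling protein of brown fat, had no count in 9 of the 10 libraries and 0.13 CPM in PBS replicate 1.

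Enzymes on both sides of the membrane work with the shuttle carriers. Of 10 enzymes of the malate-aspartate, citrate and glycerol phosphate shuttles, 6 rose, 1 fell and 3 did not pass the test. The shares over all tested genes were 20.9% higher and 22.1% lower. Mdh1 and Mdh2, the cytosolic and mitochondrial malate dehydrogenases, rose 1.73-fold and 1.58-fold (edgeR adjusted p = 0.000318 and 0.000565). Got1 and Got2, the aspartate aminotransferases of the cytosol and the mitochondrion, rose 1.72-fold and 1.65-fold (edgeR adjusted p = 0.000467 and 0.000427). The enzyme that fell was Acly, which cleaves the citrate that Slc25a1 exports, with 62.7 ± 5.03 CPM in 4FM3 and 75.8 ± 8.26 CPM in PBS (SD, n = 5 each, 1.21-fold lower, edgeR adjusted p = 0.0188). The glycerol phosphate dehydrogenases Gpd1 and Gpd2, chosen after their values were seen, did not pass the test (log2 fold changes 0.27 and 0.06, edgeR adjusted p = 0.112 and 0.654).

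ATP synthase uses the phosphate that Slc25a3 imports and makes the ATP that Slc25a4 exports. Of its 16 tested genes, 15 rose, with no overlap between the groups for any of these. Among all tested genes, 20.9% were called higher and 14.1% were higher without overlap. The median log2 fold change of the list was 0.78, beside 0.91 for Slc25a4 and 0.64 for Slc25a3. The 7 cardiomyocyte markers had a median of 0.80. The smallest p-values were those of Atp5e (1.83-fold), Atp5k (1.82-fold), Atp5d (1.63-fold) and Atp5h (1.75-fold), subunits with edgeR adjusted p between 0.000211 and 0.000261. The gene that did not pass the test was Atpif1, the inhibitor of the enzyme, at 52.3 ± 3.67 CPM in 4FM3 and 45.3 ± 8.53 CPM in PBS (log2 fold change 0.20, edgeR adjusted p = 0.166).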

How the data were processed

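The deposited table holds 3 values per gene and library for 10 left ventricle libraries, 5 of each group. The deposited count columns are whole-number read counts; the normalized columns (signal) and the transformed columns (log2), so named per the file headers, were checked and not tested. Per the submitters' processing notes the build was mm10. Aligner, annotation, counter and any use of strand were not given in the sources used here. Per the labels' protocols, ribosomal RNA was removed and libraries were directional. In 26 rows a calendar date stands in place of a symbol.

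Counts were filtered (filterByExpr), scaled by TMM and tested with edgeR 4.0.16 (quasi-likelihood, robust, two-sided, R 4.3.3) over 12906 genes, with Benjamini-Hochberg adjustment and a threshold of 0.05; the procedure was tested on simulated data. Expression is CPM on the TMM-scaled library size. Pair ratios are log2 of counts plus 0.5, compared by exact permutation. Lengths are those of the longest protein-coding transcript in GENCODE M21; start windows come from RefSeq. Floors of 3 counts cover counting error only.

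Alternatives were another scaling (RLE), library size alone, no filter, DESeq2 1.42.0, limma-voom (limma 3.58.1), a replicate block, a pseudocount of 1 for the ratios and each library left out; after seeing the data, PBS replicates 2 and 3 were left out, also together with 4FM3 replicates 2 and 5. Members, gene lists and tests were chosen with earlier results of these data known. Values in every library are given for the 10 members that rose most, all that fell, the 6 most abundant per length and the members of the pairs, and the 4 genes of smallest p are named from each related list. The values of 1 member are not reported here; the counts over the family include it.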

Additional observations from a re-analysis of the deposited data

Results flagged for a closer look

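In 1 of the 90 groups of 5 values screened, a single library was marked as far from the rest of its group. Slc25a29, the carrier of basic amino acids, was at 7.55 CPM in PBS replicate 1 and between 10.2 and 10.8 CPM in the other 4 PBS libraries. The gap to the nearest library took 0.815 of the range of the group, above the critical value of 0.71 for 5 samples. By chance about 1 in 20 groups would be marked, a rate that does not hold for members with hardly any counts. Slc25a48 and Slc25a54 had a lone count against 0 in the rest of a group, and these were not marked. The 4FM3 libraries, between 11.9 and 21.6 CPM, lay above all PBS libraries with or without that one.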

How the results depend on the processing

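Of the 21 members past the threshold, 13 kept their direction and their call under all 18 alternatives (11 higher, 2 lower). The alternatives include the fits that were chosen after seeing the data. Library size alone, which moved the median log2 fold change of all genes to -0.20, gave 12 of 38 members higher and 8 lower. Of 12906 genes it called 1540 higher and 4967 lower. Without PBS replicates 2 and 3, 13 members were higher and 2 lower, and of 13051 genes 1853 were higher and 1668 lower. With 4FM3 replicates 2 and 5 left out as well, 13 members were higher and 3 lower. Of 12883 genes in that fit, 2262 were higher and 2251 lower. Leaving out 1 library at a time gave 17 to 18 members higher and 3 to 5 lower. Of the 12969 to 13083 genes tested in those fits, 2317 to 2840 were higher and 2206 to 2991 lower. Replicate numbers shared by the groups did not pair the libraries (correlations of same-numbered libraries between -0.0448 and 0.0595). The replicate block gave 17 members higher and 4 lower, and of 12906 genes 2740 higher and 2852 lower. The ratio differences of Slc25a4/Slc25a5 and Slc25a23/Slc25a24 with 1 library left out ran from 0.62 to 0.75 and from 0.38 to 0.53, and their adjusted p of 0.0635 is the smallest that 9 libraries allow when 2 of 8 pairs reach the minimum. They were 0.65 and 0.51 without PBS replicates 2 and 3, and 0.79 and 0.54 without all 4 libraries. Among the 4FM3 libraries, those left out there, replicates 2 and 5, had the lowest Slc25a4/Slc25a5 ratios (11.3 and 9.67). Leaving them out raises the Slc25a4/Slc25a5 difference by construction, so no conclusion is drawn from 0.79. The Slc25a39/Slc25a40 ratio passed without PBS replicate 1 (0.44; 0.23 to 0.44 over the libraries left out), and the cause was not tested. Among members not past the threshold, signs turned under library size alone for Slc25a16 (-0.0013), Slc25a23 (-0.094), Slc25a33 (-0.023), Slc25a35 (-0.056), Slc25a40 (-0.076), Slc25a44 (-0.17) and Slc25a47 (-0.16), as the shift of the scaling does by construction. Slc25a44 also turned under the replicate block (-0.00052), with PBS replicate 5 or 4FM3 replicate 2 left out (range over all libraries left out -0.033 to 0.033) and without all 4 libraries (-0.031). With 1 library left out, Slc25a47 ran from -0.094 to 0.11, Slc25a35 from -0.038 to 0.21 and Slc25a53 from -0.23 to 0.0052. Slc25a53 was 0.055 without PBS replicates 2 and 3 and 0.096 without all 4 libraries, where Slc25a33 was -0.083. Depth limits the 8 members that were not tested and those under 10 CPM.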

Other observations

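Transporters of the mitochondrial membranes outside the carrier family moved in both directions. Of 18 tested, 11 were higher in 4FM3 and 4 lower, beside 20.9% and 22.1% of all tested genes. Mpc2, a subunit of the pyruvate carrier, had 263, 196, 279.9, 262 and 231 CPM in 4FM3 replicates 1 to 5, against 153, 128, 130.1, 157 and 109 CPM in PBS replicates 1 to 5, with no overlap (1.82-fold, edgeR adjusted p = 0.000278). Vdac1 and Vdac3, channels of the outer membrane, rose 1.56-fold and 1.5-fold (edgeR adjusted p = 0.000439 and 0.000298). The 4 that fell were the sideroflexins Sfxn3 and Sfxn1, the outer membrane protein Tspo and the sodium-calcium exchanger Slc8b1, of which the last 3 were chosen after their values were seen. Sfxn3 had 23.2, 25.2, 19.5, 21.7 and 31.1 CPM in 4FM3 and 41.5, 45.4, 41.4, 38.4 and 36.7 CPM in PBS (1.68-fold lower, edgeR adjusted p = 0.000427). Tspo averaged 42.4 ± 10.5 CPM in 4FM3 and 78.2 ± 10 CPM in PBS (1.84-fold lower, SD, n = 5 each, edgeR adjusted p = 0.00121).

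Genes of the route that inserts carriers into the inner membrane were tested beside the carriers themselves. Of 6 tested, 4 rose, beside 20.9% of all tested genes. Their fitted changes were below those of Slc25a4 and Slc25a3. Tomm70a, the outer membrane receptor for carrier precursors, had 132, 127, 154, 130.3 and 127 CPM in 4FM3 and 112, 92.3, 98.9, 111 and 96.5 CPM in PBS, with no overlap (1.31-fold, edgeR adjusted p = 0.0015). The chaperones Timm9 and Timm10 of the intermembrane space rose 1.29-fold and 1.43-fold, and the translocase subunit Timm22 rose 1.33-fold (edgeR adjusted p = 0.0167, 0.00236 and 0.0126). A test of the difference between these genes and the carriers was not run.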
